A study of Mus musculus with 12 samples.

Results

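Germline genes known for control by DNA methylation at their promoters were measured in mouse embryonic stem cells on 12 single-colour Agilent arrays. The set held 10 genes: Dazl, Ddx4, Mael, Tdrd1, Tex19.1, Stra8, Hormad1, Sycp1, Sycp3 and Tex101. They were chosen by name, and every gene-directed probe whose RefSeq transcript belongs to a gene of the set was used, which gave 11 probes (Hormad1 had 2) among 36983 genes and unnamed transcripts on the array. Of the 10 genes, 9 were well above background on all 12 arrays and were tested. No array had Tdrd1 well above background, so its level was below what these arrays measure. The signal of 9 genes was thus well above background in every group. A bulk signal does not tell in what share of the cells a gene was silenced. DNA methylation itself was not measured here.

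The arrays formed 4 groups of 3: wild-type cells with LIF, wild-type cells with 2i+LIF, Nat1-null cells with LIF, and Nat1-null cells with 2i+LIF. All cells grew on gelatin-coated plates, and all received LIF, a cytokine that holds mouse embryonic stem cells undifferentiated. 2i is a pair of inhibitors, of the MAP kinase kinase MEK and of the kinase GSK3. The deleted gene, Nat1, is read as Eif4g2 under an earlier name (its protein is also called DAP5); it encodes a translation initiation factor. The labels name no clone, allele or number of independent lines for the null cells, nor separate cultures for the replicates, so the p-values reflect the spread among these arrays, which may be technical. Eif4g2 was 9.28-fold lower in Nat1-null cells with LIF and 7.42-fold lower with 2i+LIF. Wild-type LIF arrays lay on slide 1, wild-type 2i+LIF arrays on slide 2 and all Nat1-null arrays on slide 3. Slide thus cannot be told apart from genotype or, in wild-type cells, from medium, and only 2i in Nat1-null cells was compared within 1 slide. Within slide 3 the 2i+LIF arrays shared a row with LIF replicate 3 alone, so row and medium largely coincide there. Spots well above background made up 52.5% on that LIF array and 49.8% to 55.1% on the 2i+LIF arrays. On LIF replicates 1 and 2 they made up 63.4% and 60.7%. Between 49.8% and 66.3% of the 59305 gene-directed spots were well above background on an array, and replicates correlated at 0.988 to 0.997 across genes.

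Promoters of many germline genes are rich in CpG dinucleotides, and in somatic tissue their cytosines are methylated and the genes are off. In embryonic stem cells these genes are held down by de novo methyltransferases (Dnmt3a, Dnmt3b and their cofactor Dnmt3l), by maintenance methylation (Dnmt1 and Uhrf1) and by the non-canonical Polycomb complex PRC1.6, whose E2F6 and MGA subunits bind DNA. Culture with 2i is known for lowering DNA methylation across the genome of these cells.

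RefSeq promoter windows of assembly GRCm38.p6, from 250 bases before to 50 bases after a start, were available for all 10 genes (13 windows). The first window of each gene held 10 CpG dinucleotides in Stra8, 15 in Sycp3, 16 in Tex19.1, 19 in Tex101, 20 in Tdrd1, 21 in Sycp1, 24 in Mael and in Hormad1, 28 in Dazl and 38 in Ddx4, against a median of 7 over all 32851 windows of the table. The letters CACGTG, a palindrome that MGA and its partner MAX can bind, stood in a window of 6 of the 10 genes (Ddx4, Hormad1, Mael, Sycp1, Sycp3 and Tdrd1) and in 7.15% of all windows. The letters TCCCGC, the core of an E2F motif, searched on both strands, stood in windows of 6 of the 10 genes (Ddx4, Hormad1, Mael, Sycp1, Sycp3 and Tex19.1) and in 20.0% of all windows. In these 10 genes no match of one motif overlapped a match of the other, and a match is a description of the window and not a bound site.

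The 200 bases before the start are printed 5′ to 3′ for 6 genes, with every CG in capitals. Ddx4 and Stra8 are shown because their array patterns were the most alike in the set while their CpG content lay at its ends: Ddx4 at chr13:112652311-112652510 (minus strand) has 31 CG in this stretch and Stra8 at chr6:34920748-34920947 (plus strand) has 3. Hormad1 at chr3:95559477-95559676 (plus strand) is the gene of the set that was higher in Nat1-null cells in both media. Tex19.1 at chr11:121145943-121146142 (plus strand) and Tex101 at chr7:24672051-24672250 (minus strand) had the widest span of group means, and Mael at chr1:166238745-166238944 (minus strand) was lower in each of the 4 comparisons of medium and genotype. Hormad1 has 16 CG here, Tex19.1 has 13, Tex101 has 12 and Mael has 15.
Ddx4: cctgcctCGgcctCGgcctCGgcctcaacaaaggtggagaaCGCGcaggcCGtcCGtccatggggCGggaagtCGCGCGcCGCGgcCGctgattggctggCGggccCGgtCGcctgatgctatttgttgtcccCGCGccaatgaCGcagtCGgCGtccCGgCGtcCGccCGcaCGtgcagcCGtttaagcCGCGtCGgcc
Stra8: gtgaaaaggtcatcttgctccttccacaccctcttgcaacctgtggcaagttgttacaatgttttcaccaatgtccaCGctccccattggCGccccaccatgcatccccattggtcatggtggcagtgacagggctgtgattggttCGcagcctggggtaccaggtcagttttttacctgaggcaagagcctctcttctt
Hormad1: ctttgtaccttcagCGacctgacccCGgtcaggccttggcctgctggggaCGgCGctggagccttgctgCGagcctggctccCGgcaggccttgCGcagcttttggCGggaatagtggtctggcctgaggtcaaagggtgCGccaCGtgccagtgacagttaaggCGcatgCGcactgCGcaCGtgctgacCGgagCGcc
Tex19.1: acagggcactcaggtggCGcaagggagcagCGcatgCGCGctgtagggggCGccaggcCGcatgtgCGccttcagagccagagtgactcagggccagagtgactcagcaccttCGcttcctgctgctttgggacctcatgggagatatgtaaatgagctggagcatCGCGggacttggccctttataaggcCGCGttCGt
Tex101: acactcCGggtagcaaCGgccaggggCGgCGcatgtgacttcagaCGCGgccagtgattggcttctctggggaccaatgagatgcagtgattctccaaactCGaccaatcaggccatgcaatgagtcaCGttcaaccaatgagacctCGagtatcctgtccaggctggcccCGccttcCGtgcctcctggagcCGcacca
Mael: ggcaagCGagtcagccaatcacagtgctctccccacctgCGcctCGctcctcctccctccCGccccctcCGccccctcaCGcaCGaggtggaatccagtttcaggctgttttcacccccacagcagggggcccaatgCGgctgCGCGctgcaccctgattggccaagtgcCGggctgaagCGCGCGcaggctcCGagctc

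A level below is a probe's log2 processed signal minus the 75th percentile of the same array, so that 0 is the level of that percentile. Levels of different genes come from different probes and are not set against each other. A difference was called at adjusted p below 0.05 (limma, Benjamini-Hochberg over 24456 genes). Across all genes, 62.3% were called for 2i in wild-type cells, 37.1% for 2i in Nat1-null cells, 66.8% for Nat1 loss in LIF, 43.6% for Nat1 loss in 2i+LIF and 49.7% for the difference between the 2i responses of the genotypes. Of the 9 genes, 7, 4, 7, 7 and 6 were called in these 5 comparisons, in the same order. In a bulk sample, fewer cells that express a gene and less of its RNA per cell cannot be told apart.

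**Figure D1:**
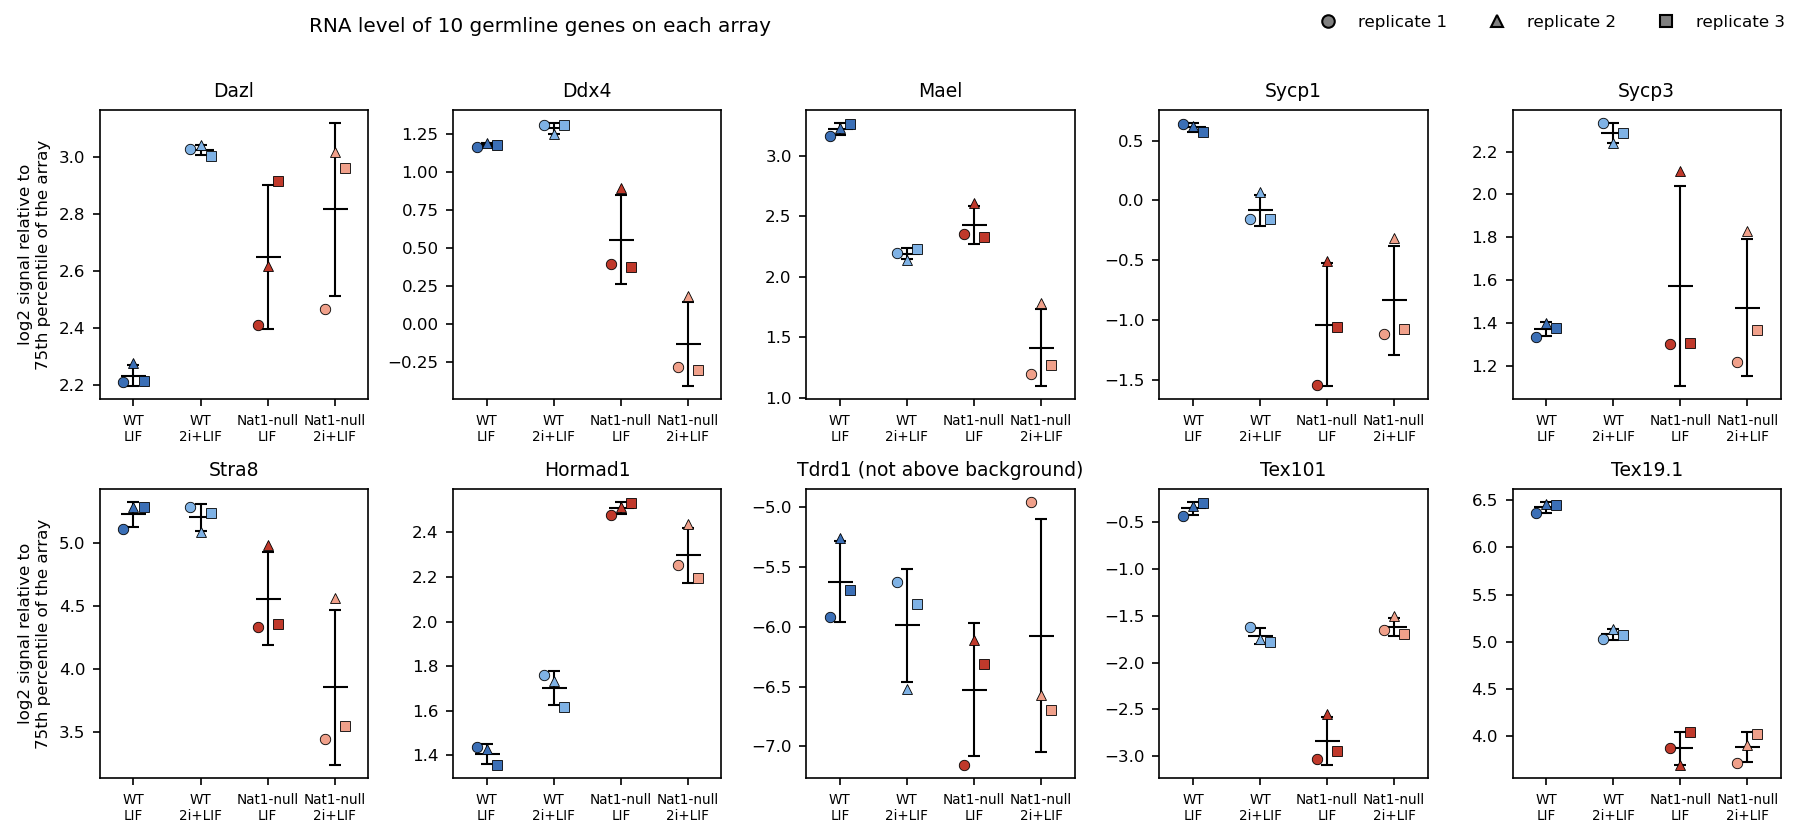
RNA level of the 10 germline genes on each array (log2 signal minus the array's 75th percentile, a separate y axis for each gene). Symbols are replicates 1 to 3, and bars give the mean ± SD of 3 arrays. Wild-type arrays lie close together, while replicate 2 of the Nat1-null groups lies apart for Ddx4, Sycp3 and Stra8, and Tdrd1 is not above background on any array.

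Germ cell RNA regulators and genes of transposon defence came first. Dazl encodes an RNA-binding protein that germ cells need for their development. Its level on replicates 1 to 3 was 2.21, 2.28 and 2.22 in wild-type LIF cells and 3.03, 3.04 and 3.00 in wild-type 2i+LIF cells. In Nat1-null cells it was 2.41, 2.62 and 2.92 with LIF and 2.47, 3.02 and 2.96 with 2i+LIF. Wild-type LIF arrays were below all others, and the other 3 groups overlapped along their order (wild-type 2i+LIF, Nat1-null 2i+LIF, Nat1-null LIF). Dazl rose 1.73-fold with 2i in wild-type cells (log2 0.79, SE 0.15, adjusted p = 0.00127). In Nat1-null cells the 2i difference was 0.17 (SE 0.15, adjusted p = 0.420), and the 2 responses differed by -0.62 (SE 0.22, adjusted p = 0.0358). That last call was lost without any 1 of the 6 wild-type arrays or without Nat1-null LIF replicate 2 or 3 (adjusted p between 0.0511 and 0.0702), and without scaling (-0.25, adjusted p = 0.436). Nat1 loss in LIF gave 0.41 (adjusted p = 0.0345), and in 2i+LIF it gave -0.21 (adjusted p = 0.302). The call in LIF was lost when any wild-type LIF array, Nat1-null LIF replicate 2 (adjusted p = 0.0592) or replicate 3 (0.28, adjusted p = 0.126) was left out. Without scaling between arrays, Dazl kept the sign of its rise with 2i in wild-type cells but not the call (0.22, adjusted p = 0.288).

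Ddx4, the Vasa RNA helicase of germ cells, had levels of 1.16, 1.19 and 1.17 in wild-type LIF cells and 1.30, 1.25 and 1.31 in wild-type 2i+LIF cells. Levels in Nat1-null cells were 0.40, 0.89 and 0.38 with LIF and -0.28, 0.19 and -0.30 with 2i+LIF. No neighbours in the order wild-type 2i+LIF, wild-type LIF, Nat1-null LIF, Nat1-null 2i+LIF overlapped. Nat1 loss lowered Ddx4 by 0.62 in LIF (adjusted p = 0.00506) and 2.67-fold in 2i+LIF (log2 -1.42, SE 0.15, adjusted p = 6.5e-05). With 2i it fell by 0.69 in Nat1-null cells (adjusted p = 0.00671), a comparison that gave adjusted p = 0.0698 when only the 6 Nat1-null arrays were fitted. In wild-type cells the 2i difference was 0.11 (SE 0.15, adjusted p = 0.562), and it turned to -0.46 (adjusted p = 0.0389) without scaling. The Ddx4 responses to 2i differed between genotypes by -0.80 (SE 0.22, adjusted p = 0.0126), a call that was lost without scaling (-0.42, adjusted p = 0.179).

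Mael encodes Maelstrom, a protein of the piRNA pathway that silences transposons in the germline. Its levels were 3.17, 3.23 and 3.26 in wild-type LIF cells and 2.20, 2.14 and 2.23 in wild-type 2i+LIF cells. In Nat1-null cells they were 2.35, 2.61 and 2.32 with LIF and 1.19, 1.78 and 1.27 with 2i+LIF. The order was wild-type LIF, Nat1-null LIF, wild-type 2i+LIF, Nat1-null 2i+LIF, with no overlap between neighbours. Mael fell 2.04-fold with 2i in wild-type cells (log2 -1.03, SE 0.14, adjusted p = 1.3e-04) and 2.02-fold in Nat1-null cells (log2 -1.01, adjusted p = 4.2e-04). The 2 responses differed by 0.02 (SE 0.20, adjusted p = 0.951). Nat1 loss lowered it 1.73-fold in LIF (adjusted p = 6.2e-04) and 1.71-fold in 2i+LIF (adjusted p = 0.00152). Each of these 4 calls was kept under every alternative run. The 3 Nat1-null 2i+LIF arrays shared a row of slide 3 with Nat1-null LIF replicate 3, and against that array alone the Mael mean was lower by 0.91 on the log2 scale.

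Tex19.1, a mammal-specific gene that limits retrotransposons in germ cells and is also active in placenta and embryonic stem cells, spanned the most of the 9 genes. Its levels were 6.36, 6.46 and 6.45 in wild-type LIF cells and 5.03, 5.13 and 5.07 in wild-type 2i+LIF cells. They were 3.88, 3.70 and 4.04 in Nat1-null LIF cells and 3.72, 3.91 and 4.03 in Nat1-null 2i+LIF cells. Wild-type LIF lay above wild-type 2i+LIF, which lay above both Nat1-null groups, and the Nat1-null groups overlapped. Tex19.1 fell 2.54-fold with 2i in wild-type cells (log2 -1.35, SE 0.10, adjusted p = 2.1e-06). The 2i difference in Nat1-null cells was 0.02 (SE 0.10, adjusted p = 0.919), and the responses differed by 1.36 (SE 0.14, adjusted p = 3.5e-05). Nat1 loss lowered it 5.86-fold in LIF (log2 -2.55, adjusted p = 1.7e-08) and 2.28-fold in 2i+LIF (log2 -1.19, adjusted p = 1.2e-05). Tdrd1, a Tudor-domain scaffold for PIWI proteins, completes this class. On none of the 12 arrays did its signal stand well above background, so no order or fold is given.

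Stra8 is induced by retinoic acid and commits germ cells to meiosis. Its levels were 5.12, 5.29 and 5.29 in wild-type LIF cells and 5.29, 5.09 and 5.25 in wild-type 2i+LIF cells. In Nat1-null cells they were 4.33, 4.99 and 4.36 with LIF and 3.45, 4.57 and 3.55 with 2i+LIF. The wild-type groups overlapped, as did the Nat1-null groups, and every Nat1-null array was below every wild-type array. Stra8 fell 2.56-fold with Nat1 loss in 2i+LIF (log2 -1.35, SE 0.28, adjusted p = 0.00301). In LIF the difference was -0.67 (SE 0.28, adjusted p = 0.0536), and without Nat1-null LIF replicate 2 it was -0.88 (adjusted p = 0.0211). The 2i difference was -0.02 in wild-type cells (adjusted p = 0.946) and -0.71 in Nat1-null cells (adjusted p = 0.0710). Without Nat1-null 2i+LIF replicate 2 the latter was -1.06 (adjusted p = 0.00246). The responses differed by -0.68 (SE 0.39, adjusted p = 0.175), and by -1.04 without that array (adjusted p = 0.00706). Other alternatives weakened these 3 uncalled differences. Nat1 loss in LIF came as close to 0 as -0.51, with adjusted p up to 0.152. For 2i in Nat1-null cells the limits were -0.49 and 0.216, and for the difference between responses -0.31 and 0.557.

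The chromosome axis and the synaptonemal complex hold paired chromosomes in order in meiosis. Hormad1, an axis protein that monitors pairing, was the called gene that rose with Nat1 loss in both media. Its brighter probe had levels of 1.44, 1.43 and 1.36 in wild-type LIF cells and 1.76, 1.73 and 1.62 in wild-type 2i+LIF cells. Levels were 2.48, 2.51 and 2.53 in Nat1-null LIF cells and 2.25, 2.44 and 2.20 in Nat1-null 2i+LIF cells. No neighbours in the order Nat1-null LIF, Nat1-null 2i+LIF, wild-type 2i+LIF, wild-type LIF overlapped. Hormad1 rose 2.14-fold with Nat1 loss in LIF (log2 1.10, SE 0.07, adjusted p = 4.2e-07) and 1.51-fold in 2i+LIF (adjusted p = 1.0e-04). Its second probe gave 1.54 (SE 0.20, adjusted p = 8.1e-05) and 0.89 (adjusted p = 0.00576) for these comparisons. With 2i, Hormad1 rose by 0.30 in wild-type cells (adjusted p = 0.00415), but the difference was -0.27 without scaling (adjusted p = 0.0440), 0.06 for the second probe (SE 0.20, adjusted p = 0.804), and 0.18 for the mean of the probes (adjusted p = 0.198). In Nat1-null cells it fell by 0.21 (adjusted p = 0.0372), and the call was lost without any 1 of 5 of the 6 Nat1-null arrays (all but 2i+LIF replicate 2), with adjusted p between 0.0616 and 0.124. The second probe gave -0.59 there (SE 0.20, adjusted p = 0.0460). The responses differed by -0.51 (SE 0.10, adjusted p = 0.00187), by -0.65 for the second probe (SE 0.28, adjusted p = 0.0851, not called), and by -0.13 without scaling (adjusted p = 0.479).

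Sycp3 is the main protein of the axis along each chromosome. Its levels were 1.34, 1.40 and 1.38 in wild-type LIF cells and 2.33, 2.24 and 2.29 in wild-type 2i+LIF cells. They were 1.30, 2.11 and 1.30 in Nat1-null LIF cells and 1.22, 1.83 and 1.37 in Nat1-null 2i+LIF cells. Wild-type 2i+LIF arrays were above all others, and the remaining groups overlapped along their order. Sycp3 rose 1.89-fold with 2i in wild-type cells (log2 0.92, SE 0.21, adjusted p = 0.00412), and without scaling the value was 0.35 (adjusted p = 0.206). In Nat1-null cells the 2i difference was -0.10 (SE 0.21, adjusted p = 0.748). The responses differed by -1.02 (SE 0.30, adjusted p = 0.0191), and by -0.64 without scaling (adjusted p = 0.130). Nat1 loss gave 0.20 in LIF (SE 0.21, adjusted p = 0.432). In 2i+LIF it lowered Sycp3 1.76-fold (log2 -0.81, adjusted p = 0.0119), and the value was -0.59 without scaling (adjusted p = 0.0565).

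Sycp1 forms the transverse filaments that join the paired axes. Its levels were 0.64, 0.62 and 0.57 in wild-type LIF cells and -0.16, 0.07 and -0.16 in wild-type 2i+LIF cells. They were -1.54, -0.51 and -1.06 in Nat1-null LIF cells and -1.12, -0.31 and -1.07 in Nat1-null 2i+LIF cells. Both Nat1-null groups overlapped each other and lay below both wild-type groups. Sycp1 fell 3.13-fold with Nat1 loss in LIF (log2 -1.64, SE 0.26, adjusted p = 3.1e-04). It fell by 0.75 in 2i+LIF (adjusted p = 0.0418) and by 0.69 with 2i in wild-type cells (adjusted p = 0.0420). The call in 2i+LIF was lost without any wild-type 2i+LIF array or without Nat1-null 2i+LIF replicate 1 or 3 (adjusted p between 0.0755 and 0.132), without scaling (-0.53, adjusted p = 0.147) and without the filter on dim probes (adjusted p = 0.0698). The call for 2i in wild-type cells was lost without any 1 of the 6 wild-type arrays (adjusted p between 0.0578 and 0.102) and without the filter (adjusted p = 0.0690). In Nat1-null cells the 2i difference was 0.20 (SE 0.26, adjusted p = 0.580). The responses differed by 0.89 (SE 0.37, adjusted p = 0.0704), and by 1.16 without Nat1-null LIF replicate 2 (adjusted p = 0.0139). Other alternatives gave values down to 0.63 and adjusted p up to 0.140.

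Tex101, a glycoprotein anchored to the surface of germ cells, was called in opposite directions for 2i in the 2 genotypes, as Hormad1 was with smaller and less stable differences. Its levels were -0.43, -0.33 and -0.30 in wild-type LIF cells and -1.62, -1.74 and -1.78 in wild-type 2i+LIF cells. They were -3.03, -2.55 and -2.95 in Nat1-null LIF cells and -1.65, -1.51 and -1.69 in Nat1-null 2i+LIF cells. Wild-type LIF lay above and Nat1-null LIF below the 2 groups with 2i+LIF, which overlapped. Tex101 fell 2.57-fold with 2i in wild-type cells (log2 -1.36, SE 0.12, adjusted p = 5.7e-06) and rose 2.34-fold in Nat1-null cells (log2 1.23, adjusted p = 3.8e-05). The responses differed by 2.59 (SE 0.16, adjusted p = 1.5e-06). Nat1 loss lowered Tex101 5.61-fold in LIF (log2 -2.49, adjusted p = 5.3e-08), while in 2i+LIF the difference was 0.10 (SE 0.12, adjusted p = 0.526). Within the shared row of slide 3, the Nat1-null 2i+LIF mean was 1.33 above Nat1-null LIF replicate 3.

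**Figure D2:**
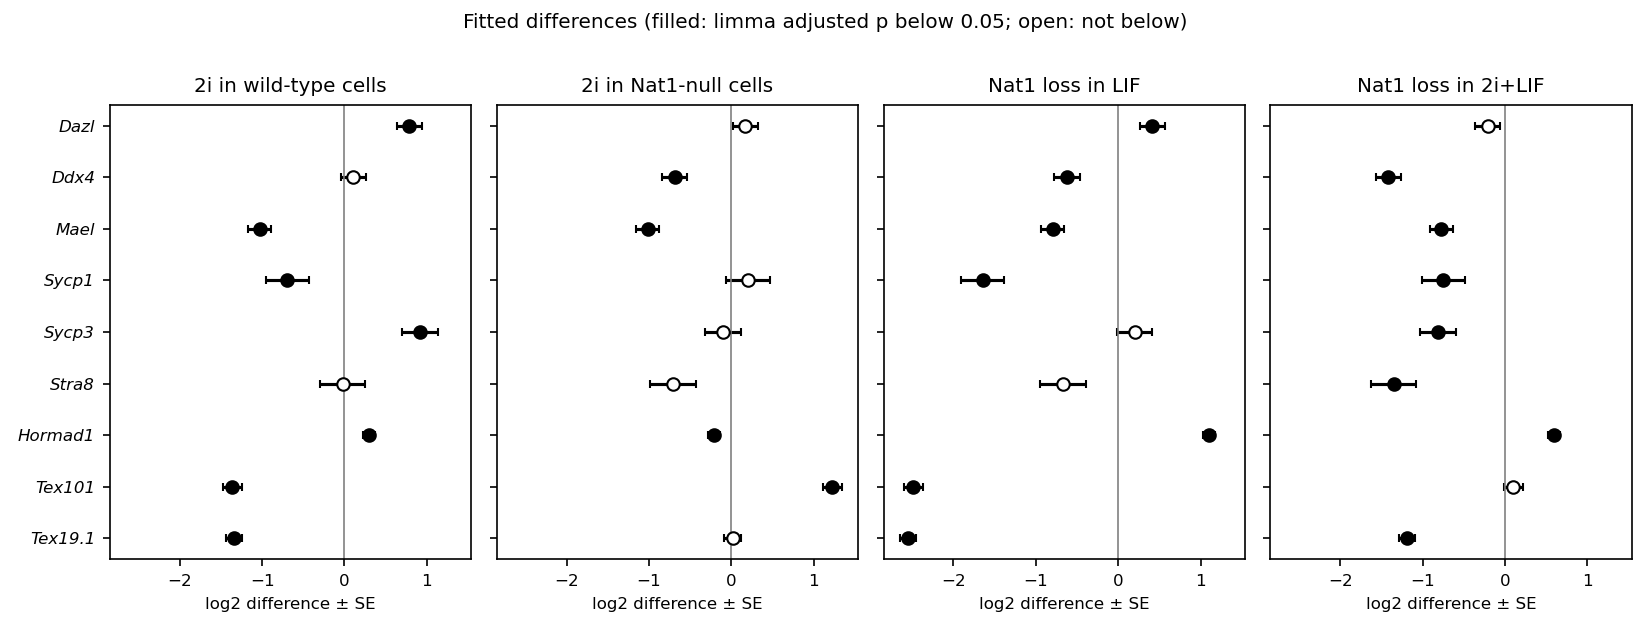
Fitted log2 differences ± SE for the 9 tested genes in 4 comparisons of 3 against 3 arrays. Filled points were called (limma adjusted p below 0.05) and open points were not. Nat1 loss in 2i+LIF puts 6 called genes below 0, with Hormad1 the called gene above it. Mael is below 0 in all 4 panels.

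Counted by direction, 2i in wild-type cells called 3 genes higher (Dazl, Sycp3 and Hormad1) and 4 lower (Mael, Sycp1, Tex101 and Tex19.1), where 35.0% and 27.2% of all genes were called higher and lower. In Nat1-null cells 2i called Tex101 higher and Ddx4, Mael and Hormad1 lower, beside 21.4% and 15.8% of all genes. Nat1 loss in LIF called Dazl and Hormad1 higher and 5 genes lower (Ddx4, Mael, Sycp1, Tex101 and Tex19.1), beside 33.9% and 32.9%. Nat1 loss in 2i+LIF called Hormad1 higher and 6 genes lower (Ddx4, Mael, Sycp1, Sycp3, Stra8 and Tex19.1), beside 21.0% and 22.6%. The median difference of the 9 genes was -0.02, -0.10, -0.67 and -0.78 in these comparisons, and that of all genes was 0.06, 0.05, 0.02 and -0.01. The 2 comparisons of genotype and the 2 of medium share groups, so their values are not independent of each other. The 2i response was called as differing between genotypes in 6 of the 9 genes. It was higher in Nat1-null cells in 2 (Tex101 and Tex19.1) and lower in 4 (Dazl, Ddx4, Sycp3 and Hormad1), beside 23.6% and 26.2% of all genes. The 4 lower calls were lost without scaling between arrays.

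Scaling bears on directions. Without scaling between arrays the median of all genes was -0.50 for 2i in wild-type cells, -0.14 for 2i in Nat1-null cells, -0.14 for Nat1 loss in LIF, 0.22 for Nat1 loss in 2i+LIF and 0.34 for the difference between the responses. Of all called genes, 12.8%, 22.1%, 39.3%, 75.9% and 78.5% were then higher, against 56.3%, 57.5%, 50.7%, 48.1% and 47.4% with scaling, and quantile normalisation gave 46.8% for 2i in Nat1-null cells. Differences of the germline genes are therefore relative to the 75th percentile.

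Replicate 2 stood apart in both Nat1-null groups. It was the highest of 3 arrays in 6 of the 9 genes with LIF and in 8 with 2i+LIF, and in 6 it was the highest in both, beside 34.8%, 33.5% and 19.6% of all genes. Stra8 was higher on it than the mean of replicates 1 and 3 by 0.64 with LIF and by 1.07 with 2i+LIF. For Sycp1 the values were 0.79 and 0.78, for Sycp3 0.81 and 0.54, for Ddx4 0.50 and 0.48, and for Mael 0.27 and 0.55. Tex19.1 was the gene for which replicate 2 was the lowest with LIF (-0.26). Residuals of these 2 arrays correlated at 0.30 across all genes. A fit with both left out together was added after seeing the data. Both arrays were high for Stra8 and Sycp1, so leaving them out had to lower the Nat1-null means of these genes. The arrays left differed for Stra8 by only 0.03 with LIF and 0.10 with 2i+LIF. Adjusted p-values of that fit are therefore a description. In it Stra8 was called lower with Nat1 loss in LIF (-0.88, adjusted p = 2.9e-05) and with 2i in Nat1-null cells (-0.85, adjusted p = 2.2e-04). The difference between its 2i responses was then also called (-0.83, adjusted p = 6.0e-04), as was that of Sycp1 (0.90, adjusted p = 0.00506), while Dazl lost its call for Nat1 loss in LIF (0.43, adjusted p = 0.0534).

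**Figure D3:**
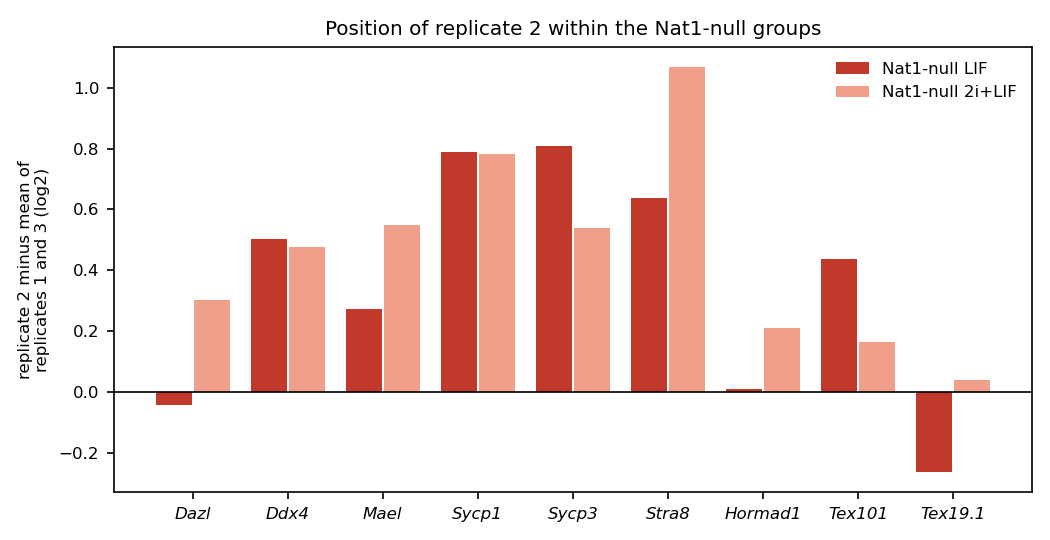
Log2 level on replicate 2 minus the mean of replicates 1 and 3 in each Nat1-null group, for the 9 tested genes. Bars start at 0. Sycp1, Sycp3, Stra8, Ddx4 and Mael are above 0 in both media, and Stra8 with 2i+LIF reaches 1.07.

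Array patterns of the genes were compared over all 12 arrays, which share groups and slides, as a description. Ddx4 and Stra8 were the pair most alike (Pearson r = 0.97), Sycp1 and Tex19.1 gave 0.90, and Hormad1 and Tex19.1 gave -0.95. The genes most like each of the 7 that spanned at least 1 were taken from all genes with a symbol. For Ddx4 they were Ptpdc1 (r = 0.983), the synaptonemal complex gene Syce3 (0.982) and Vill (0.981). For Tex101 they were Parva, Pdgfrl and Celf2 (0.992 to 0.995), and for Tex19.1 Apoo, Gli3 and Lsm11 (0.995 to 0.996). Mael was closest to Efcab2, Pcnx2 and Wfdc15a (0.985 to 0.986), and Sycp1 to Ccdc152, Rhox2c and Hebp2 (0.984 to 0.990). Hormad1 was closest to Vmac, Cntrob and Ccp110 (0.989 to 0.990), and Stra8, after Ddx4, to Pdgfra and Efcab1 (0.968 and 0.964).

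Other genes of the same pathways were counted from listed sets that share some genes with each other. Of 15 piRNA pathway and genome defence genes 10 were tested, and Nat1 loss called 6 lower and 1 higher in LIF (all genes: 32.9% lower, 33.9% higher) and again 6 lower and 1 higher in 2i+LIF (all genes: 22.6% lower, 21.0% higher). The shares of all genes are the same for the counts that follow. Tdrd12, a Tudor protein of the pathway, fell by 3.51 in LIF and by 1.47 in 2i+LIF, and Tex19.2, the paralog of Tex19.1, fell by 2.66 and by 1.66. Mov10l1, the helicase that loads piRNA precursors, changed by 0.29 in LIF (not called) and fell by 2.02 in 2i+LIF. Of 22 meiosis genes 19 were tested, with 9 lower and 4 higher after Nat1 loss in LIF and 12 lower and 1 higher in 2i+LIF. Syce3, which joins the central element to Sycp1, fell by 1.55 and by 2.56, and the cohesin subunit Rec8 by 2.92 and by 0.57. Of 18 other germline genes 15 were tested, with 5 lower and 4 higher in LIF and 8 lower and 3 higher in 2i+LIF.

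A gene of these lists could pass the filter through wild-type arrays alone and then had to be lower in null cells. Among genes well above background on all 12 arrays, Nat1 loss in LIF called 5 of 9 piRNA genes, 7 of 17 meiosis genes and 5 of 12 other germline genes lower, beside 28.9% of 18992 such genes. Nat1 loss in 2i+LIF called 5 of 9 piRNA genes, 11 of 17 meiosis genes and 6 of 12 other germline genes lower, beside 22.2% of them. Among the same bright genes, 2i in wild-type cells called 2 higher and 4 lower of 9 piRNA genes, 3 and 8 of 17 meiosis genes and 6 and 4 of 12 other germline genes, beside 43.0% higher and 24.4% lower of all. For 2i in Nat1-null cells the counts were 4 and 2, 3 and 9, and 1 and 4, beside 27.1% and 17.4%.

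**Figure D4:**
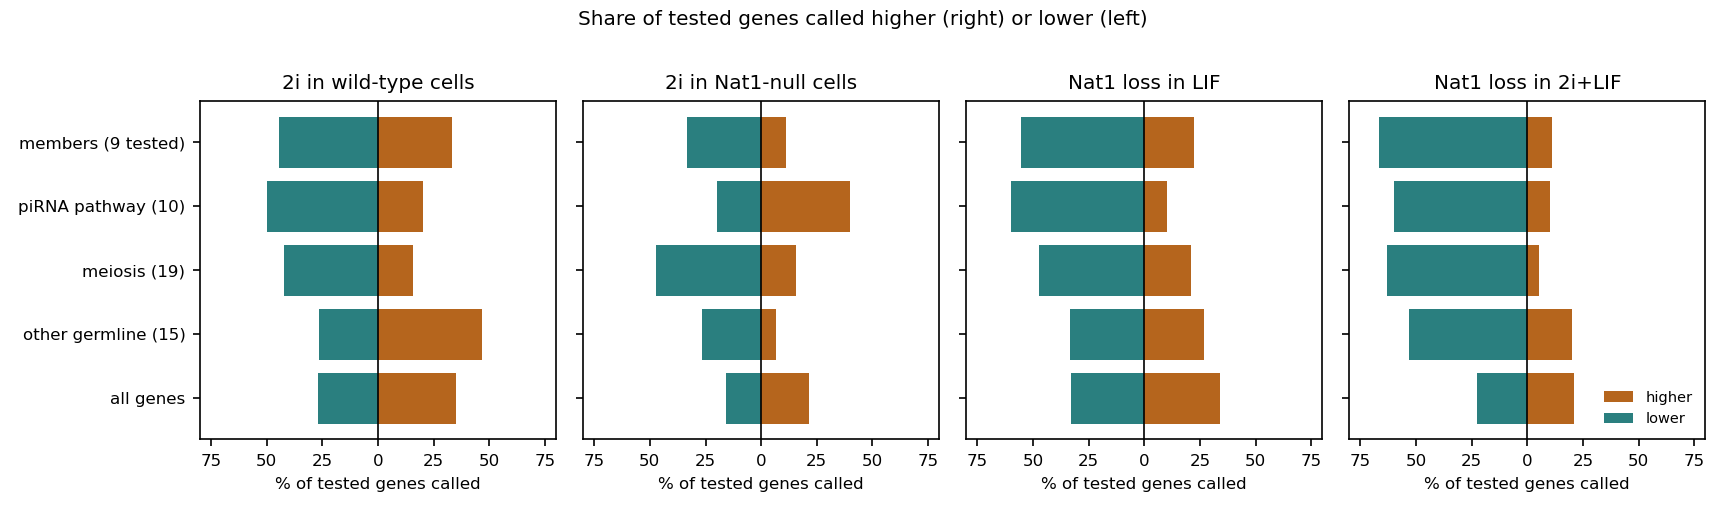
Share of tested genes called higher (right) or lower (left) in 4 comparisons, for the 9 tested germline genes, 3 listed sets of related genes and all genes, in percent. For Nat1 loss in 2i+LIF the bars to the left are longer for each of the 4 germline sets than for all genes (22.6%).

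Several named genes that write, keep and remove DNA methylation were called in the same comparisons. Dnmt1, the maintenance methyltransferase, and its partner Uhrf1 rose by 1.01 and 1.01 with 2i in wild-type cells and by 1.02 and 0.70 with Nat1 loss in LIF. Dnmt3b fell by 2.56 with 2i in wild-type cells and by 2.20 with Nat1 loss in LIF, but rose by 0.64 with 2i in Nat1-null cells and by 1.00 with Nat1 loss in 2i+LIF (adjusted p = 3.6e-04). Dnmt3l fell by 4.58 with 2i in wild-type cells and by 1.67 in Nat1-null cells. With Nat1 loss it fell by 1.22 in LIF and rose by 1.70 in 2i+LIF (adjusted p = 3.3e-05). Dnmt3a fell by 1.48 with Nat1 loss in LIF and by 1.42 in 2i+LIF, and its 2i differences were -0.12 and -0.06 (neither called). Tet1 and Tet2, which oxidise methylated cytosine, rose by 1.02 and 1.52 with 2i in wild-type cells and by 1.45 and 2.29 with Nat1 loss in LIF. With 2i in Nat1-null cells Tet1 fell by 0.48. Tet2 fell by 0.47 there, with overlapping groups and a call near the threshold (adjusted p = 0.0495). For Nat1 loss in 2i+LIF their differences were -0.06 and 0.29 (neither called). Of 20 methylation genes 19 were tested, and 8 were higher and 5 lower with 2i in wild-type cells, shares near the 35.0% and 27.2% of all genes. The counts were 3 and 5 with 2i in Nat1-null cells (all genes: 21.4% and 15.8%), 12 and 6 with Nat1 loss in LIF (33.9% and 32.9%) and 6 and 2 in 2i+LIF (21.0% and 22.6%).

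The repressors that bind germline promoters moved in both directions. E2f6 fell by 0.58 with 2i in wild-type cells and by 0.77 with Nat1 loss in LIF, and the PRC1.6 ring partner Pcgf6 fell by 0.45 and by 0.74. With 2i in Nat1-null cells E2f6 was not called (0.03) and Pcgf6 rose by 0.32. Neither was called for Nat1 loss in 2i+LIF (-0.15 and 0.03). Kdm5c, also a listed repressor, rose by 1.19 with Nat1 loss in LIF and by 0.46 in 2i+LIF. Mga rose by 0.72 with Nat1 loss in LIF and by 0.24 with 2i in wild-type cells, where it turned to -0.33 without scaling. All 20 listed repressors were tested, with 12 higher and 4 lower for Nat1 loss in LIF (all genes: 33.9% and 32.9%) and 7 and 1 in 2i+LIF (21.0% and 22.6%). For 2i, 11 were higher and 3 lower in wild-type cells (35.0% and 27.2%) and 3 and 3 in Nat1-null cells (21.4% and 15.8%). Retinoic acid, which induces Stra8, has its own listed targets and receptors. Nat1 loss lowered the receptor Rarb by 1.85 in LIF and 1.75 in 2i+LIF. The Nat1-null 2i+LIF arrays of Rarb were far apart (-0.66, -3.08 and -2.51, against a wild-type 2i+LIF mean of -0.33). The catabolic enzyme Cyp26a1 fell by 1.46 and 1.39, and it was well above background on 2 of the 3 Nat1-null 2i+LIF arrays. Cdx1, of the same list, rose by 1.39 and 0.86. Of 21 such genes, 16 were lower and 4 higher with Nat1 loss in LIF (all genes: 32.9% and 33.9%). In 2i+LIF 10 were lower and 3 higher (22.6% and 21.0%). Some of them passed the filter through wild-type arrays alone. Of the 17 that were well above background on all 12 arrays, 12 were lower in LIF and 8 in 2i+LIF, beside 28.9% and 22.2% of all such genes. With 2i, 13 of the 21 were lower and 3 higher in wild-type cells (all genes: 27.2% and 35.0%). In Nat1-null cells 6 were lower and 8 higher with 2i (15.8% and 21.4%). Stra8 was called in neither of these 2i comparisons in the main fit. A link of Stra8 to these genes was not tested. Of 11 germ cell specification factors, 8 were higher and 3 lower with Nat1 loss in LIF (all genes: 33.9% and 32.9%), and 1 and 3 in 2i+LIF (21.0% and 22.6%). Prdm14 was among those higher in LIF (2.39). Dppa3, a factor of primordial germ cells that also shields DNA from methylation change, was among the 3 that fell with Nat1 loss in LIF (by 6.68), while in 2i+LIF its difference was 0.21 (not called). With 2i, Dppa3 fell by 3.98 in wild-type cells and rose by 2.92 in Nat1-null cells.

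**Figure D5:**
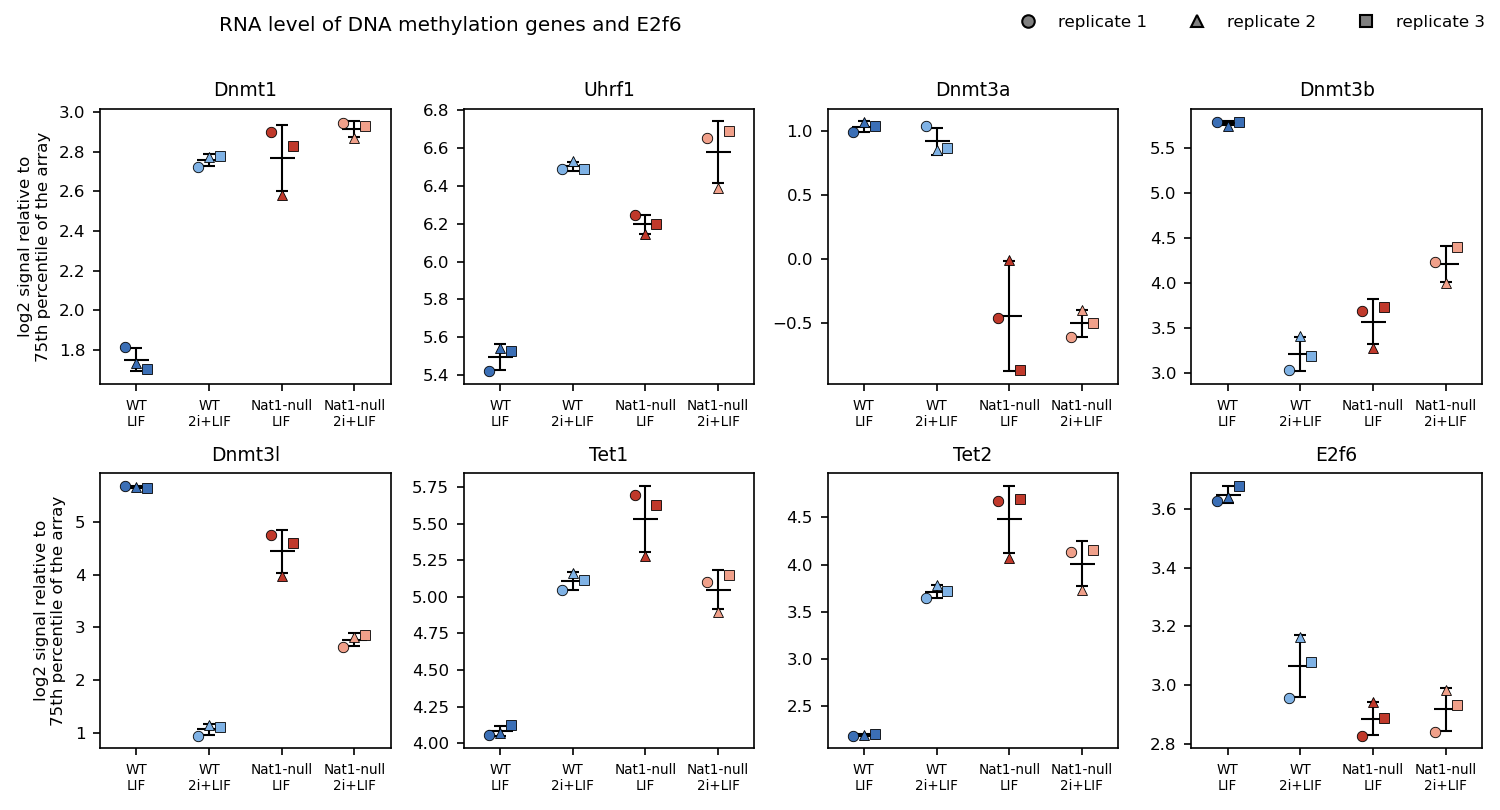
RNA level of 7 DNA methylation genes and of E2f6 on each array (log2 signal minus the array's 75th percentile, a separate y axis for each gene). Symbols are replicates, and bars give the mean ± SD of 3 arrays. Dnmt1 and Uhrf1 are lowest and Dnmt3b and Dnmt3l highest in wild-type LIF cells.

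Markers of other cells moved with some of these groups. All 12 embryonic stem cell markers were well above background in every group. Their summed level, in linear units of the 75th percentile, was 616 to 638 in wild-type LIF cells and 832 to 981 in the other groups. Of 18 fibroblast and feeder markers with a probe value, 16 were well above background on all wild-type LIF arrays, 11 in wild-type 2i+LIF cells, 9 in Nat1-null LIF cells and 8 in Nat1-null 2i+LIF cells. Their summed level was 338 to 361 in wild-type LIF cells, 126 to 139 in wild-type 2i+LIF cells, 103 to 124 in Nat1-null LIF cells and 174 to 182 in Nat1-null 2i+LIF cells. Lum was above background on no array. Some single markers differed by more than the sum. With 2i in wild-type cells 11 of 16 tested were lower and 2 higher (median -3.32, all genes: 27.2% and 35.0%). With Nat1 loss in LIF 13 were lower and 1 higher (median -3.10, all genes: 32.9% and 33.9%). Some markers passed the filter through wild-type LIF arrays alone. Of the 8 well above background on all 12 arrays, 4 (median -1.03) and 6 (median -1.51) were lower in these comparisons. Of all such genes 24.4% and 28.9% were lower. Acta2, smooth muscle actin, fell by 8.06 and by 9.62 in these comparisons, and the collagen gene Col1a2 by 7.61 and by 9.48. Wild-type LIF cells thus had the highest fibroblast sum and the highest level of Mael, Sycp1, Tex19.1 and Tex101, and the part of these markers in those results was not tested. Late spermatogenic markers summed to between 1.30 and 2.58 over their 12 genes on every array. Oocyte markers, 11 with a probe value and Kit among them, summed to 5.79 to 6.13 in wild-type LIF cells, 22.6 to 23.5 in wild-type 2i+LIF cells, 14.9 to 15.4 in Nat1-null LIF cells and 21.1 to 23.9 in Nat1-null 2i+LIF cells. Zp2, Bmp15 and Oosp1 were above background on no array. Kit, with a mean log2 level of 1.70 in wild-type LIF cells and 4.44 in wild-type 2i+LIF cells, made up most of each sum. The higher sums outside wild-type LIF cells thus follow Kit and not the list as a set. Kit itself rose by 2.74 with 2i in wild-type cells and by 2.15 with Nat1 loss in LIF. Of 6 oocyte markers tested, 1 (Kit) was called higher and 3 lower in each of these comparisons. For all genes the shares were 35.0% and 27.2% with 2i, and 33.9% and 32.9% with Nat1 loss. The counts were also 1 and 3 among the 5 well above background on all 12 arrays. Nlrp5 was among the lower ones (-0.97 and -2.31). The part of either list in the results was not tested.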

How the data were processed

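Total RNA was labelled with Cy3 and hybridised to 12 Agilent arrays, with 3 arrays in each group. Agilent Feature Extraction 10.7.3.1 made the deposited intensity files, per the file headers, and its processed signal is already background-subtracted. A further table deposited by the authors gives log2 signals scaled to the 75th percentile. It correlated at 1 with values recomputed from the scanner files and served as an alternative. The authors' probe annotation is not given in the sources used here. Probes were named through RefSeq transcript accessions (27650 of 55681 probes, assembly GRCm38.p6).

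Control spots and outlier spots were removed, spots of a probe averaged, and log2 processed signals shifted to the 75th percentile of each array. Of 54229 probes with a value on all arrays, 33284 passed a filter that asked for a signal well above background in all 3 arrays of 1 group or more. The probe with the highest mean stood for each gene, giving 24456 genes. Means of the 4 groups were fitted with limma 3.58.1 (R 4.3.3, moderated variances). Tests of the 5 contrasts were two-sided, and p-values were adjusted over all genes by the Benjamini-Hochberg method. On simulated data for 2i in wild-type cells, with 200 of 24456 genes changed by 1 on the log2 scale, 70.5% were recovered and 6.62% of calls were false. In the data 62.3% of genes were called in this comparison, and the simulation held no slide effect. Its rates therefore need not carry over to these data. The number of arrays limits the precision. The median replicate SD across genes was 0.07 and 0.09 in wild-type LIF and 2i+LIF cells, and 0.16 and 0.12 in Nat1-null cells.

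The germline genes, the lists and the naming rule were chosen with earlier results of these data known. Named are all germline genes, Eif4g2, a listed set of methylation, repressor and retinoic acid genes, up to 3 called genes of largest difference per list and contrast, and the 3 genes most like each germline gene spanning at least 1. Further genes the rule takes are left out for length. Alternatives covered background correction (normexp, offset 50), scaling, the dim-probe filter, the choice of probe, the samples in the fit, a replicate block and each array left out. Leaving out both Nat1-null replicate 2 arrays, and the block within Nat1-null arrays, were added after seeing the data. Replicate numbers were not used to pair samples in the main fit. Residuals correlated above 0.1 in 1 of 18 same-number pairs, that of Nat1-null replicate 2 across media (0.30). The labels do not say whether a number marks a shared line or culture, and these correlations cannot decide it. Tables were made with pandas 2.3.3 and numpy 2.4.6 in Python 3.11.15, and figures with matplotlib 3.10.9.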

Additional observations from a re-analysis of the deposited data

Results flagged for a closer look

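The response to 2i differed between Nat1-null and wild-type cells, by the interaction term of the limma fit over all genes, in 6 germline genes. For Tex101 the Nat1-null response minus the wild-type response was 2.59 on the log2 scale (adjusted p = 1.5e-06), and for Tex19.1 it was 1.36 (adjusted p = 3.5e-05). It was -0.51 for the brighter Hormad1 probe (adjusted p = 0.00187; the second probe was not called), -0.80 for Ddx4 (adjusted p = 0.0126), -1.02 for Sycp3 (adjusted p = 0.0191) and -0.62 for Dazl (adjusted p = 0.0358). Without scaling between arrays the calls of Hormad1, Ddx4, Sycp3 and Dazl were lost (adjusted p = 0.479, 0.179, 0.130 and 0.436). The Dazl call was lost in 10 alternatives. Those of Tex101 and Tex19.1 were kept under each alternative run. Across all genes 49.7% differed by this test. The wild-type response compares arrays of 2 slides and the Nat1-null response arrays of 1 slide, so slide and genotype cannot be told apart in these differences.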

How the results depend on the processing

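Of 810 values of the germline genes recomputed under alternatives, 715 kept direction and call, 25 changed sign and were called in neither setting, 49 lost a call, 19 gained one and 2 reversed. The 25 include values of Sycp3 and Tex19.1 for 2i in Nat1-null cells, of Sycp3 for Nat1 loss in LIF and of Mael for the difference between responses. Calls for Mael in all 4 comparisons, for Tex101 and Tex19.1 wherever called, for Hormad1 and Ddx4 with Nat1 loss in either medium, for Sycp1 with Nat1 loss in LIF and for Stra8 with Nat1 loss in 2i+LIF were kept under each alternative run. Without scaling, no member (0) was called higher with 2i in wild-type cells and 0 members were lower in the difference between responses. In that setting the median of all genes was -0.50 for 2i in wild-type cells. Ddx4 changed sign there to -0.46, Hormad1 to -0.27, Mga to -0.33, Setdb1 to -0.50, Tfap2c to -0.12 and Syce3 to -0.53. In the main fit Ddx4 (0.11) and Setdb1 (0.07) were not called, and the Syce3 means were 2.13 with LIF and 2.17 with 2i+LIF. For 2i in Nat1-null cells, 1 member was called lower when the fit held the compared groups alone. For Nat1 loss in LIF, 1 member was called higher with quantile normalisation, without scaling, without the filter and without replicate 2 of both Nat1-null groups, and 1 to 2 when single arrays were left out. The Eif4g2 difference in LIF was -3.02 with normexp, -3.32 with quantile normalisation and -3.37 without scaling, and in 2i+LIF it was -2.67 without scaling. The cause was not tested.

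A replicate block called 3 members higher and 4 lower for 2i in wild-type cells, 1 and 3 in Nat1-null cells, 2 and 6 for Nat1 loss in LIF, 1 and 6 in 2i+LIF, and 3 and 4 in the difference between responses. Under the block, Stra8 was called for Nat1 loss in LIF (-0.67, adjusted p = 0.0381) and Sycp1 in the difference between responses (0.89, adjusted p = 0.0272). Across all genes the block called 61.9%, 35.9%, 66.3%, 42.8% and 49.0%, in that order. With a block among Nat1-null arrays alone, Hormad1 gave adjusted p = 0.143 and Stra8 adjusted p = 0.0393 for 2i. Of 12 arrays, 2 correlated best with an array of their own number. Signal over background limits Tdrd1, which has no measured level, and 3 arrays per group limit small differences. Slide cannot be told apart from genotype.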

Other observations

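Some further genes of the germline lists had values not given above. Tdrkh, a Tudor protein of piRNA trimming, was at least 17.4-fold lower with Nat1 loss in LIF and at least 1.68-fold lower in 2i+LIF, as Nat1-null arrays did not show it well above background. These bounds set its wild-type mean against the lowest signal well above background on each null array, or its own signal where higher. Tex12, of the central element, fell by 1.77 and by 2.03 with Nat1 loss in LIF and 2i+LIF. It was well above background on 2 of the 3 Nat1-null 2i+LIF arrays, so the latter size is uncertain. Msh4, a crossover factor, rose by 1.77 with Nat1 loss in LIF and fell by 1.28 with 2i in Nat1-null cells. Pld6, the mitochondrial nuclease of the piRNA pathway, rose by 1.17 with 2i in wild-type cells, by 0.59 in Nat1-null cells and by 0.87 with Nat1 loss in LIF. Ldhc, the lactate dehydrogenase of sperm, fell by 1.34 with 2i in wild-type cells and rose by 1.20 in Nat1-null cells. Prdm14, a regulator of germ cell fate and of methylation in embryonic stem cells, rose by 1.98 with 2i in wild-type cells and by 2.39 with Nat1 loss in LIF, and fell by 0.27 with 2i in Nat1-null cells. Tfap2c rose by 1.60 with 2i in Nat1-null cells and fell by 1.47 with Nat1 loss in LIF. No hypothesis was tested on these values.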
